A study of Mus musculus with 2 samples.

Results

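Fcer1g, Tyrobp, Cd247, Hcst, Syk and Zap70 encode adaptor chains and kinases through which killer lymphocytes signal from their activating receptors. They were set by name, with earlier results of these data known, and all 6 were present among the 13528 genes of the filtered count table. The name "ITAM adaptors of killer cells" covers only some of them, because Hcst carries no ITAM, Syk and Zap70 are kinases, and Fcer1g, Tyrobp and Syk were also high in myeloid cells.

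The 11929 cells analysed were CD45+ liver leukocytes captured on BD Rhapsody microwells, which count transcripts by unique molecular identifiers (UMIs) and read 49 oligonucleotide-tagged antibodies on the same cells. TG cells came from dnTGFβRII mice, a model of primary biliary cholangitis in which a dominant negative TGF-β receptor II is driven by the CD4 promoter. WT cells came from C57BL/6 mice without the transgene. According to the labels both were 10 weeks old, whereas the study's methods give a somewhat younger age, and the number of animals behind each library is not given. TG cells were captured in a pool with IFN-γ ARE-Del-/- cells and WT cells in another pool with P40-/-IL-2Ra-/- cells, and neither of those companion genotypes was used here. There was 1 library per genotype, so no test was possible and genotype cannot be told apart from capture library. Intervals in brackets are 95% intervals that cover counting error only.

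An immunoreceptor tyrosine-based activation motif (ITAM) is a stretch of a receptor chain's tail whose tyrosines are phosphorylated by Src family kinases and then bind the SH2 domains of Syk or ZAP-70. FcRγ (Fcer1g) and CD3ζ (Cd247) are ITAM chains that pair in NK cells with the natural cytotoxicity receptor NKp46. FcRγ also pairs with CD16, and CD3ζ is also the signalling tail of the T cell receptor. DAP12 (Tyrobp) carries an ITAM for activating Ly49 receptors and NKG2C, whereas DAP10 (Hcst) serves NKG2D through a YINM motif that recruits PI3K. ZAP-70 is the kinase of conventional T cells and Syk that of B cells and myeloid cells, and NK cells use both.

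The 300-base promoters of Fcer1g and Cd247 are shown because these ITAM chains had different patterns over the cell sets, Fcer1g being high in NK, CD8αα T and myeloid cells and Cd247 in T cells at large. Each runs 5′ to 3′ on the gene's strand from 250 bases before to 50 bases after the RefSeq start in GRCm38.p6, at chr1:171234300-171234599 (minus strand) for Fcer1g and chr1:165788431-165788730 (plus strand) for Cd247. Capitals mark AGGAAG, a core that ETS family factors can bind, or its reverse complement CTTCCT.
Fcer1g: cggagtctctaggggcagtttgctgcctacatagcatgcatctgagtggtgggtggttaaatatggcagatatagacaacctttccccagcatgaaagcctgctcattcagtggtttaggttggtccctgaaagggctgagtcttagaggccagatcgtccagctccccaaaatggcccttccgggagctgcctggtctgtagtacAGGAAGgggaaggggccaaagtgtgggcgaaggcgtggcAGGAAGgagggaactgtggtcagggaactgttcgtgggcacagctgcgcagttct
Cd247: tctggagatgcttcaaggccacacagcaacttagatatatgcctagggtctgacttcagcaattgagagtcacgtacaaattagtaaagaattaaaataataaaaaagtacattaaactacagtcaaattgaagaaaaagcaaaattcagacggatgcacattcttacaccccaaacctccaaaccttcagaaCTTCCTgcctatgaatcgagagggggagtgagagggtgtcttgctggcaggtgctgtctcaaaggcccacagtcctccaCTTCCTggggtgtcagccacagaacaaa
Both windows held 2 matches to AGGAAG, on the gene's own strand in Fcer1g and on the other strand in Cd247. Over both strands, 35.1% of 27025 promoters of this length held at least 1 match, so the match set neither gene apart. The letters TGTGGT, a RUNX-type core, were present in the Fcer1g window and not in that of Cd247, against 16.9% of all promoters. GAGGAAG, a longer PU.1-type form that contains AGGAAG, was in neither window, against 13.5% of all. Of the other members, Hcst had AGGAAG at its single listed start, Zap70 at 2 of 3 starts and Syk at 0 of 2. Tyrobp had no entry.

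In GRCm38 with GENCODE M21, Fcer1g lies at chr1:171229572-171234365 (minus strand), Cd247 at chr1:165788681-165877277 (plus), Zap70 at chr1:36761798-36782818 (plus) and Syk at chr13:52583173-52648792 (plus). Tyrobp (chr7:30413760-30417585, plus) and Hcst (chr7:30417712-30419854, minus) are neighbours that converge, with 126 bases between their 3′ ends and no overlap. The Cd247 interval overlaps 6 annotated genes, among them Pou2f1 on the other strand, and Zap70 overlaps Gm18828 on the other strand. Whether the counting used strand is not given in the sources used here, and overlap of exons was not examined. The part of reads from overlapping genes in the Cd247 and Zap70 counts was therefore not tested.

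The TG library held 4647 cells with a median of 3298 UMIs and the WT library 7282 cells with a median of 2653.5 UMIs, and 36 cell barcodes occurred in both. Cell types are the authors' names and clusters the authors' numbers. Both were built from all genes, the members among them, so differences between cell sets are descriptions. Scrublet marked 47 TG cells (1.01%) and 282 WT cells (3.87%) as doublets, whereas 343 TG cells (7.38%) and 261 WT cells (3.58%) held 2 or more UMIs each of B cell and T cell genes. In the NK class, which consisted of clusters 3, 8 and 11, Cd3e, a T cell receptor subunit that NK cells lack, reached 1158 counts per 1000000 UMIs (CPM) in TG mice and 97.8 CPM in WT mice. By Cd3e the name therefore went against the data for TG clusters 3 and 11. WT cluster 3, with Cd3e at 122 CPM, had Cd3g, another CD3 subunit, at 880 CPM against 57.9 CPM in WT cluster 8. Eomes, a marker used for NK cells, was at 28.8 CPM in WT cluster 3 against 692 CPM in WT cluster 8. Ncr1, by contrast, was nearly level in the 2 WT clusters, at 961 and 988 CPM. NK cells are given by cluster number.

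Fcer1g, the FcRγ chain, was high in all 3 of these clusters, in CD8αα T cells and in myeloid cells, and low in the remaining lymphocytes. Cluster 8, in which Ncr1 (NKp46) stood at 883 CPM in TG against 988 CPM in WT mice, had 2434 CPM of Fcer1g in TG and 2469 CPM in WT mice. Cluster 3 had 1541 CPM in TG against 2503 CPM in WT mice. CD8αα T cells, which made up cluster 2, had 1704 CPM in TG mice (410 cells) and 2229 CPM in WT mice (194 cells). Cluster 8 exceeded CD8αα T cells by a log2 ratio of 0.51 [0.42, 0.61] in TG and 0.15 [0.04, 0.25] in WT mice. Among myeloid cells, monocytes had 2055 CPM in TG against 1674 CPM in WT mice and macrophages 2029 and 1062 CPM. In the other T cells the level was lower. CD8αβ T cells had 290 CPM in TG against 83.8 CPM in WT mice, NKT cells 152 and 44.7 CPM, and CD4 T cells 87.6 and 11.8 CPM.

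Nearly every CD8αα T cell carried a Fcer1g transcript, 97.6% [95.6, 98.8] in TG and 96.9% [93.4, 98.9] in WT mice, with median depths of 3168 and 2702 UMIs. Mature B cells, which should lack FcRγ, gave 17% in TG and 4.4% in WT mice. With every cell thinned to 1000 UMIs, the shares were 78.8% and 83.5% in CD8αα T cells against 6.0% and 2.1% in mature B cells. The share of NKT cells, 26.7% in TG and 7.9% in WT mice, was 9.9% and 3.9% after thinning. CD4 T cells, with 16.4% in TG and 2.9% in WT mice, were at or below the B cell share in both libraries.

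**Figure D1:**
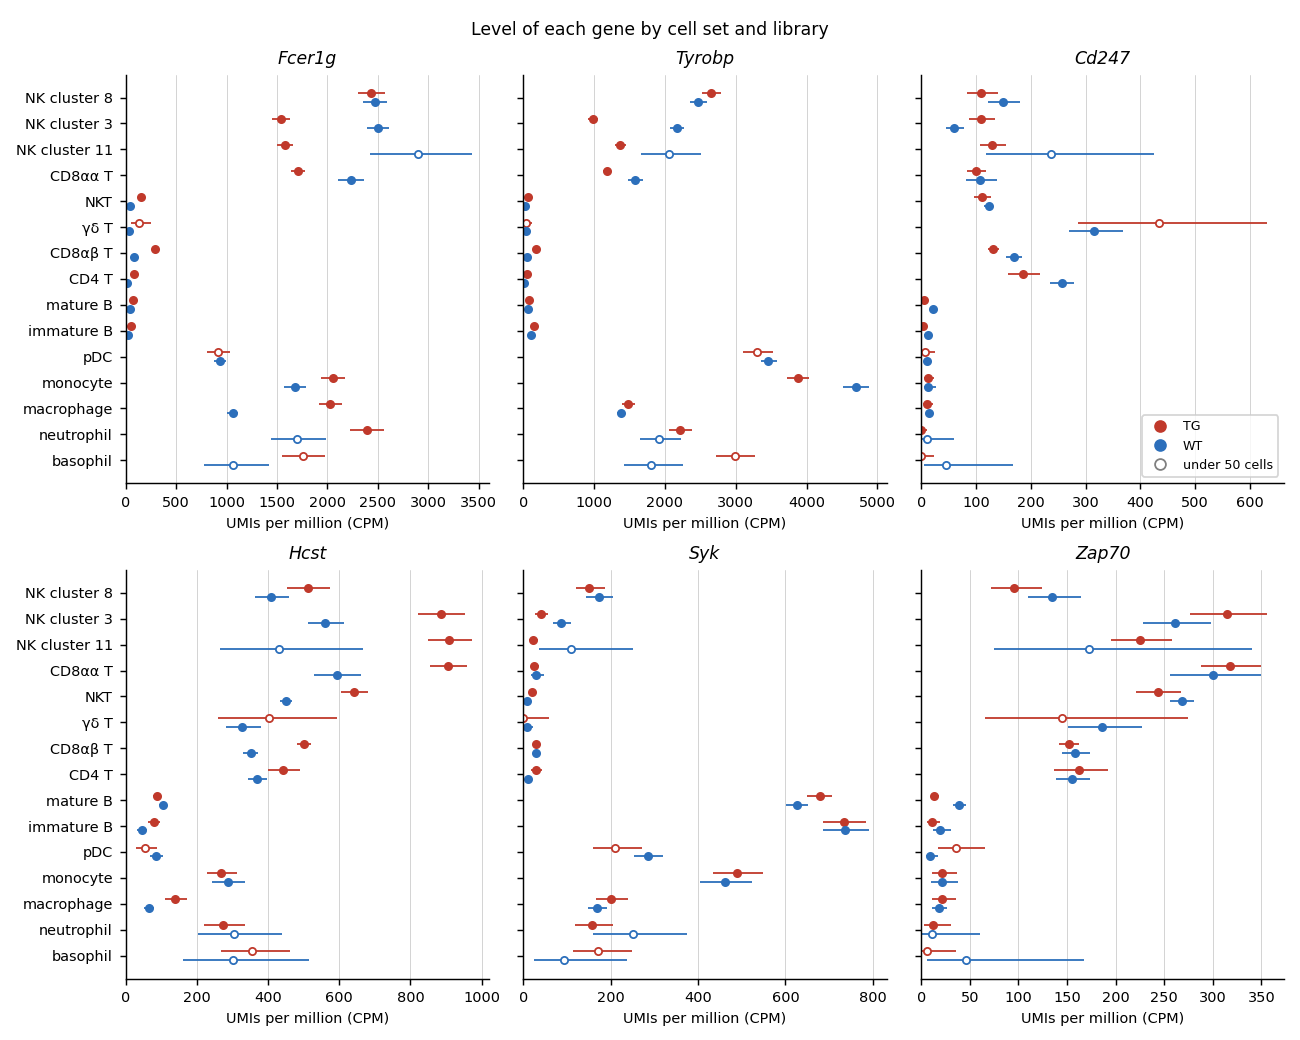
Level of each of the 6 genes in CPM (x axis) by cell set (y axis), with points for the TG and WT libraries and bars for 95% counting intervals. Fcer1g and Tyrobp are high in NK clusters, CD8αα T cells and myeloid cells, Cd247 and Zap70 in T and NK cells, and Syk in B cells, at 678 CPM in TG mature B cells.

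Ordered by level, Fcer1g ran in TG mice from cluster 8 over neutrophils, monocytes, macrophages, CD8αα T cells, cluster 11 and cluster 3 to CD8αβ T, NKT, CD4 T and B cells. Of the 11 neighbouring pairs of these 12 sets 6 had overlapping intervals, cluster 8 with neutrophils and CD8αα T cells with cluster 11 among them. In WT mice the order was cluster 3, cluster 8, CD8αα T cells, monocytes, macrophages, plasmacytoid dendritic cells (pDC), CD8αβ T, NKT, mature B, γδ T, immature B and CD4 T cells. Clusters 3 and 8 overlapped, as did cluster 8 with CD8αα T cells, by a narrow margin, and each neighbouring pair from NKT cells to CD4 T cells.

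Tyrobp, the DAP12 chain, broadly followed Fcer1g in lymphocytes and was highest in monocytes, at 3880 CPM in TG against 4698 CPM in WT mice. It stood at 2650 CPM in TG against 2473 CPM in WT cells of cluster 8, and at 1176 and 1582 CPM in CD8αα T cells. pDC, which had a Fcer1g level of 919 CPM in TG against 932 CPM in WT mice, held 3306 and 3463 CPM of Tyrobp. Tyrobp was low in NKT cells, with 70.2 CPM in TG against 27.6 CPM in WT mice, and in CD4 T cells, with 55.6 and 13.9 CPM. Mature B cells, at 75.3 CPM in TG against 59.8 CPM in WT mice, were above both, with intervals that overlapped those of NKT cells in TG mice. B cells of cluster 1 alone had 57.1 CPM in TG mice, below the NKT cells, and 44.1 CPM in WT mice.

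Cd247, the CD3ζ chain, was spread over T and NK cells and did not separate CD8αα T cells from other T cells in the way Fcer1g did. It was at 186 CPM in TG against 256 CPM in WT CD4 T cells, and at 132 and 169 CPM in CD8αβ T cells. CD8αα T cells had 100 CPM in TG against 107 CPM in WT mice, and cluster 8 had 110 and 149 CPM. γδ T cells had the highest level in WT mice, 316 CPM over 192 cells, while the TG class held only 17 cells (434 CPM). No Cd247 UMI was counted in the 54 TG neutrophils, which allows a level of up to 8.91 CPM (3 UMIs of the total), and monocytes stood at 11.7 CPM in TG against 13.4 CPM in WT mice.

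The balance of the ITAM chains set the T cell types apart. Fcer1g made up 94.4% of the Fcer1g and Cd247 UMIs of CD8αα T cells in TG and 95.4% in WT mice. The share was 68.7% in TG and 33.2% in WT CD8αβ T cells and 57.6% and 26.6% in NKT cells. The TG value of the CD8αβ T class rested largely on cluster 7, where it was 82.4%, against 27.0% to 39.5% in its clusters 4, 12, 13 and 18. Cluster 23 of the class, with only 15 TG cells, had 79.0%. In cluster 13 the WT share was the higher one (57.7%). The share was 32% in TG and 4.41% in WT CD4 T cells, and 22.9% [10.4, 40.1] in TG and 10.2% [6.23, 15.4] in WT γδ T cells, where the TG value rests on 35 UMIs. The TG share was the higher one in each of these classes except CD8αα T cells, with overlapping intervals in γδ T cells. B cells of cluster 1 also had the higher share in TG mice, at 93.7% against 71.7% in WT mice. Their Fcer1g level was 56.8 CPM in TG against 13.4 CPM in WT mice. The part of this background in the T cell shares was not tested.

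Hcst, the DAP10 chain of NKG2D, was broad among T and NK cells. It was at 907 CPM in TG against 593 CPM in WT CD8αα T cells and at 886 and 561 CPM in cluster 3. NKT cells had 643 CPM in TG against 450 CPM in WT mice, cluster 8 had 511 and 409 CPM, and CD4 T cells 443 and 370 CPM. Unlike Fcer1g and Tyrobp, Hcst was therefore no lower in CD4 T cells than in monocytes, which had 269 CPM in TG against 287 CPM in WT mice. Mature B cells had 88.1 CPM in TG against 105 CPM in WT mice. Klrk1, which encodes NKG2D, was more restricted, at 608 CPM in TG against 513 CPM in WT CD8αα T cells against 26.0 CPM in TG CD4 T cells.

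Syk and Zap70 divided the leukocytes. Syk was highest in B cells, with 678 CPM in TG against 626 CPM in WT mature B cells, and reached 490 and 461 CPM in monocytes. Among lymphocytes other than B cells it stood out in cluster 8, at 150 CPM in TG against 172 CPM in WT mice. CD8αα T cells had only 24.9 CPM in TG against 29.1 CPM in WT mice. Syk UMIs were found in 6.3% of TG and 7.2% of WT CD8αα T cells, against 8.0% and 2.3% of CD4 T cells, which should lack the kinase. Zap70 was high in CD8αα T cells, at 318 CPM in TG against 300 CPM in WT mice, where its interval overlapped that of cluster 3 in TG and of NKT cells in WT mice, and was at 95.5 and 135 CPM in cluster 8. It was in 60.2% of TG and 52.1% of WT CD8αα T cells, or 22.9% and 29.4% after thinning to 1000 UMIs.

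The kinase share separated CD8αα T cells from cluster 8, although both were high in Fcer1g and Tyrobp. Syk made up 7.27% of the Syk and Zap70 UMIs of CD8αα T cells in TG and 8.84% in WT mice, and 12% and 9.33% with cells thinned to 1000 UMIs. In cluster 8 it made up 61.2% [52.5, 69.3] in TG and 56.1% [49.3, 62.7] in WT mice. CD8αβ T cells lay at 16.5% in TG and 15.0% in WT mice (14.7% and 9.90% without doublets) and NKT cells at 7.33% and 3.22%. The CD8αβ T values rested in part on cluster 7, at 22.3% in TG and 30.6% in WT mice. In TG mice clusters 4, 12, 13 and 18 of the class lay at 9.93% to 13.7%. In WT mice clusters 4, 12, 13 and 23 lay at 1.85% to 9.47%, around the value of CD8αα T cells or below it. Mature B cells, at 98.1% and 94.2%, and monocytes, at 95.8% and 95.6%, lay at the other end. UMIs of both kinases were found together in 22 TG cells (14.4%) and 29 WT cells (10.1%) of cluster 8.

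**Figure D2:**
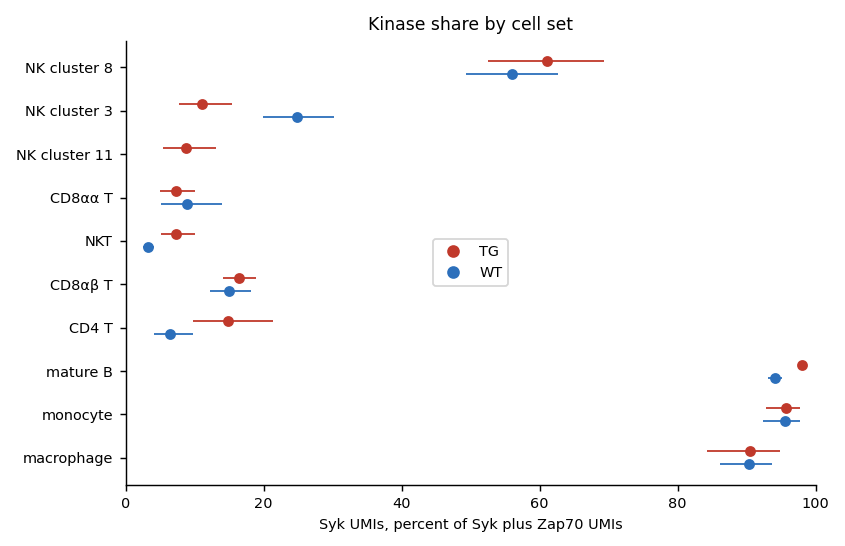
Syk UMIs as a percent of Syk plus Zap70 UMIs (x axis) by cell set (y axis) in the TG and WT libraries, with bars for exact 95% binomial intervals. Cluster 8 sits between the T cells and the B and myeloid cells, at 61.2% in TG and 56.1% in WT mice.

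Compared directly, cluster 8 exceeded CD8αα T cells in Syk by a log2 ratio of 2.59 in TG and 2.57 in WT mice and fell short in Zap70 by a log2 ratio of -1.73 and -1.15. A log2 ratio of at least 1 in either direction is referred to as called, among genes with at least 30 UMIs over both cell sets. In TG mice 3 of the 6 members were called, with Tyrobp at 1.17 as the third, against 13.4% of all genes tested. In WT mice only Syk and Zap70 were called, against 11.4% of all. The CD3 subunits, which the T cell receptor needs at the surface, were all lower in cluster 8, with a median log2 ratio of -3.72 over 3 genes in TG and -4.45 in WT mice, against -0.10 and -0.02 over all genes. Among the Fcer1g partners 3 of 4 tested in TG and 2 of 3 in WT mice were called higher in cluster 8, with Ncr1 and Fcgr3 in both, and among the Tyrobp partners 2 of 4 in each, Klra4 and Klra8, against 4.04% of all genes in TG and 5.38% in WT mice. Klrb1c and Klrk1 were tested and not called. Klra genes are near-identical, so their counts are uncertain.

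Among clusters named NK, cluster 3 differed between the libraries. Its Fcer1g level of 1541 CPM in TG mice compared with 2503 CPM in WT mice, its Tyrobp level of 978 CPM with 2173 CPM, and its Syk level of 39.3 CPM with 86.4 CPM. Cd3e stood at 1608 CPM in TG against 122 CPM in WT cells of the cluster. Cluster 11, almost absent from WT mice (343 TG and 22 WT cells), resembled it, with 1401 CPM of Cd3e, 1577 CPM of Fcer1g and a Syk share of 8.73% in TG mice. Cluster 8 had Cd3e at 133 CPM in TG against 67.5 CPM in WT mice.

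**Figure D3:**
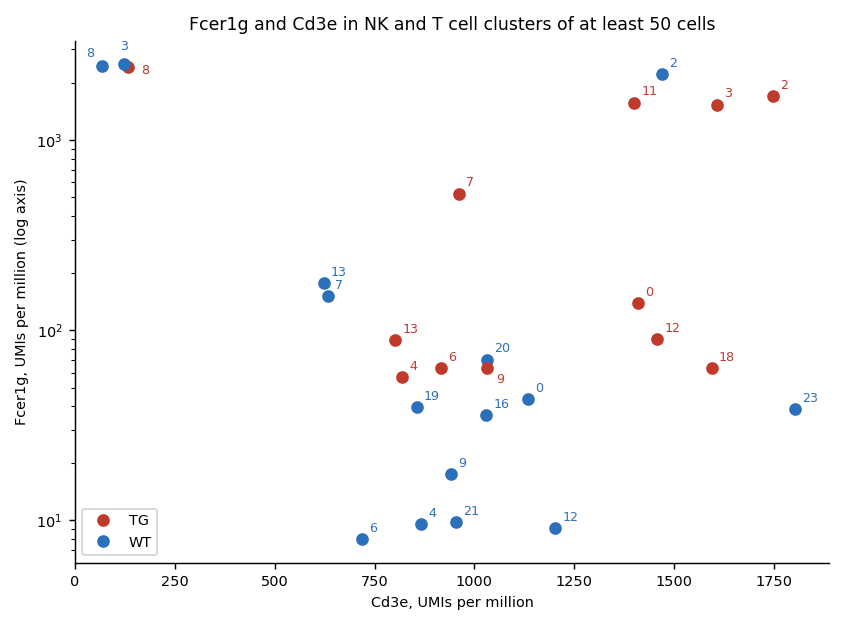
Fcer1g (y axis, CPM, log axis) against Cd3e (x axis, CPM) in NK and T cell clusters of at least 50 cells, with each point a cluster in the TG or the WT library. Cluster 2 of both libraries and clusters 3 and 11 of TG mice are high in both genes (TG cluster 3 at 1541 and 1608 CPM). Cluster 8 of both libraries and cluster 3 of WT mice are high in Fcer1g and low in Cd3e.

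The cells of cluster 3 were split by whether they carried a Cd3e UMI. In TG mice 89.7% did, against 12.4% in WT mice. The 236 TG cells with Cd3e had a Syk share of 6.77% [3.99, 10.6], a Zap70 level of 332 CPM and a Fcer1g level of 1476 CPM, and 92.4% of them carried Fcer1g. The 27 TG cells without Cd3e had a Syk share of 50% [30.7, 69.4], on 14 UMIs of each kinase, and a Fcer1g level of 2079 CPM. In cluster 8 the same split gave a Syk share of 52.4% with and 64.9% without Cd3e in TG mice, and 57.1% and 55.9% in WT mice, so a Cd3e UMI did not go with a low Syk share there. In WT cluster 3 the split did not order the shares as in TG mice either, with 30.9% in 38 cells with Cd3e and 23.4% in 268 cells without.

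TG and WT mice were then compared within each cell type. In CD8αα T cells 0 of 6 members were called, against 5.83% of 7130 genes tested. Fcer1g was lower in TG mice, with a log2 ratio of -0.39 [-0.49, -0.29], and so was Tyrobp, with -0.43 [-0.55, -0.31]. Hcst was higher, with 0.61 [0.44, 0.79]. For Cd247 (-0.10 [-0.55, 0.37]), Syk (-0.22 [-1.13, 0.74]) and Zap70 (0.08 [-0.18, 0.35]) a difference was not detectable at this depth, and thinning to 1000 UMIs turned the sign of each of these 3. The composition of the class differed, since Trdc, a γδ T cell receptor gene, was found in 20 of 410 TG cells and 82 of 194 WT cells. Without these cells the ratio was -0.50 for Fcer1g and -0.61 for Tyrobp.

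In cluster 8 again 0 of 6 were called, against 4.95% of all genes. Fcer1g stood at -0.02 [-0.12, 0.08], Hcst at 0.32 [0.08, 0.56] and Zap70 at -0.50 [-1.01, -0.01]. The Fcer1g interval here and that in CD8αα T cells did not overlap, and the difference between them could not be tested over mice.

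In the other T cells the FcRγ and DAP12 transcripts were the members that differed most. In NKT cells Fcer1g, Tyrobp and Syk, 3 of 6 members, were called higher in TG mice, with log2 ratios of 1.76, 1.35 and 1.11, against 5.17% of all genes. In CD8αβ T cells Fcer1g (1.79) and Tyrobp (1.62), 2 of 6, were called, against 5.81%, and without the proliferating cluster 7 only Tyrobp was, with Fcer1g at 0.78 and Tyrobp at 1.73. In CD4 T cells Fcer1g (2.89), Tyrobp (2.00) and Syk (1.40), 3 of 6, were called, against 7.0%. Syk was low in both classes, at 19.3 CPM in TG against 8.93 CPM in WT NKT cells [0.45, 1.74]. In CD4 T cells it was at 28.4 and 10.8 CPM [0.49, 2.31]. Cd79a, a B cell receptor chain, was also higher in TG mice, at 56.6 against 18.5 CPM in NKT and 72.2 against 31.8 CPM in CD4 T cells. The part of free B cell RNA in the Syk calls was not tested. Beside the Fcer1g and Tyrobp calls stands the level in B cells. In cluster 1, the largest B cell cluster, Fcer1g was at 56.8 CPM in TG against 13.4 CPM in WT mice, a log2 ratio of 2.08 [1.57, 2.63]. Cluster 4 of the CD8αβ T class, with 56.8 and 9.53 CPM, and cluster 6 of the CD4 T class, with 63.1 and 8.01 CPM, showed much the same levels as these B cells within each library. Tyrobp in cluster 1 was at 57.1 CPM in TG against 44.1 CPM in WT mice, a log2 ratio of 0.37 [0.03, 0.71]. With the cluster 1 level of each library subtracted, a comparison added after the data were seen, Fcer1g stood at 1.60 in NKT and 1.73 in CD8αβ T cells and Tyrobp at 3.2 in CD8αβ T cells. No such ratio could be formed for Tyrobp in NKT cells or for Fcer1g and Tyrobp in CD4 T cells, whose WT levels lay below those of cluster 1. Syk, which is high in B cells, was left out of the subtraction. The CD8αβ T values kept cluster 7. Without that cluster Fcer1g was at 92.9 CPM in TG mice, and no subtracted ratio was computed. The Tyrobp ratio of 3.2 rests on a small WT remainder, with 57.1 CPM in CD8αβ T cells against 44.1 CPM in cluster 1. The part of free RNA in these ratios was not tested beyond this.

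Cd247 moved less. It was lower in TG mice in CD4 T cells, with -0.46 [-0.73, -0.20], and in CD8αβ T cells, with -0.36 [-0.52, -0.19], and stood at -0.14 [-0.38, 0.08] in NKT cells. Zap70 showed no detectable difference in NKT (-0.14 [-0.29, 0.01]), CD8αβ T (-0.06 [-0.23, 0.10]) or CD4 T cells (0.06 [-0.24, 0.36]). Hcst was higher in TG mice in each of these classes, at 0.51 [0.41, 0.61] in NKT, 0.51 [0.41, 0.62] in CD8αβ T and 0.26 [0.08, 0.44] in CD4 T cells, and kept this sign under every alternative run for these classes. B cells of cluster 1 had a like ratio, at 0.50 [0.20, 0.81]. Within the CD4 T class the intervals held 0 in cluster 6 (0.26 [-0.16, 0.65]) and cluster 9 (0.14 [-0.09, 0.38]). Cluster 6 made up 58 of 238 TG and 397 of 734 WT cells of that class.

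Outside T and NK cells, 2 of 6 members, Cd247 (-1.90) and Zap70 (-1.53), were called lower in TG mature B cells, against 3.73% of all genes. Cluster 17, a mature B cluster of 29 TG and 155 WT cells of which doublet marking took 28 and 147, moved with this. In cluster 1 alone the ratios were -0.47 for Cd247 and -0.20 for Zap70, and Hcst changed from -0.25 to 0.50. In immature B cells 1 of 5 members was called, Fcer1g, higher in TG mice at 54.0 against 22.6 CPM (1.26 [0.55, 2.01]), where 4.27% of all genes were. In monocytes 0 of 4 members with enough UMIs were called, against 8.06% of all genes. In macrophages Hcst was called (1.09 [0.65, 1.54]), 1 of 5 members, against 7.57% of all. Macrophage Fcer1g was at 0.93 [0.82, 1.04], and Fcgr4, an activating Fc receptor that needs FcRγ, was at 479 CPM in TG against 75.7 CPM in WT macrophages. Fcgr3, another such receptor, was at 114 CPM in TG against 140 CPM in WT macrophages. The Hcst call ended under TMM scaling, at 0.99, after thinning, at 0.92, and without cells that held both T cell and myeloid genes, where the ratio was 0.57. With the cluster 1 level subtracted the ratio was 2.29. That value rests on a small WT remainder, with Hcst at 65.0 CPM in WT macrophages against 51.6 CPM in WT cluster 1. In TG mice these levels were 139 and 73.0 CPM. Of the 4 macrophage markers in the table, 1 was over 2-fold above the other cells in TG and 4 in WT macrophages. The macrophage class was also mixed differently, with Fcer1g at 2691 CPM in TG against 1677 CPM in WT cells of cluster 15 and at 306 and 276 CPM in cluster 22. Within cluster 15 the ratio was 0.68 [0.56, 0.80] for Fcer1g and 1.09 [0.57, 1.63] for Hcst.

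**Figure D4:**
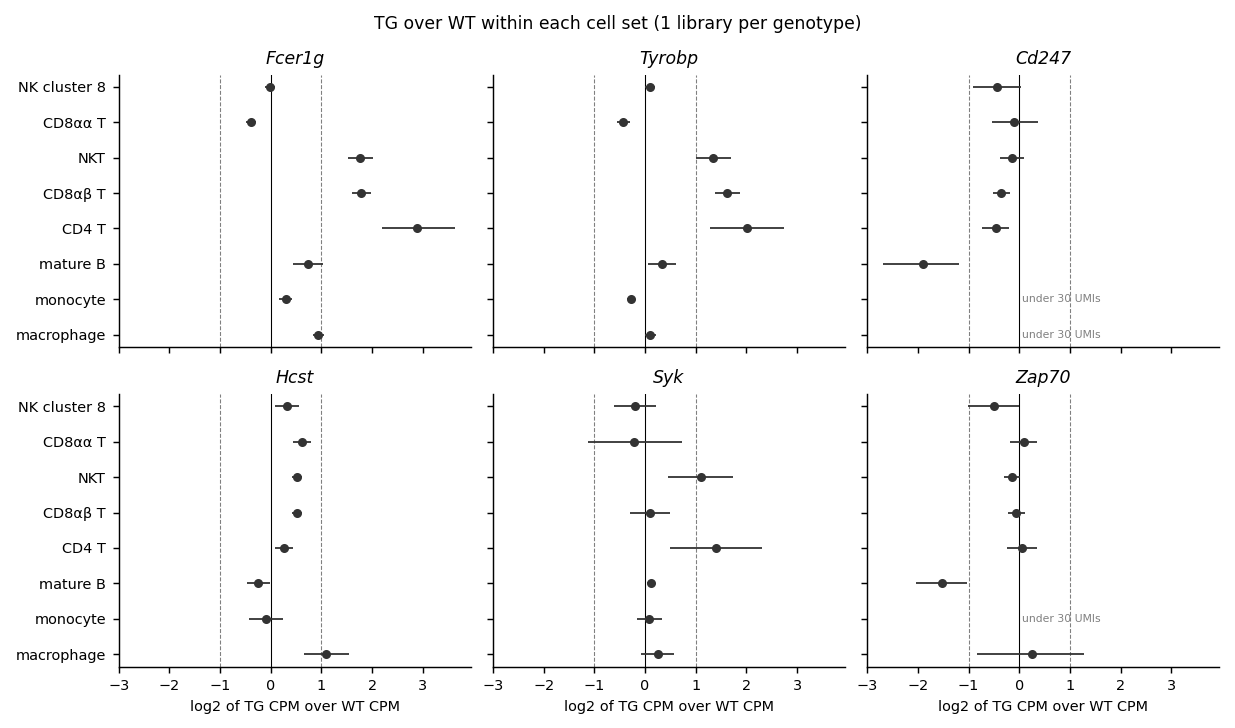
The log2 ratio of TG over WT CPM (x axis) for each of the 6 genes within each cell set (y axis), with bars for exact 95% counting intervals and 1 library per genotype. Fcer1g lies below 0 in CD8αα T cells (-0.39) and above 1 in NKT, CD8αβ T and CD4 T cells, and Hcst lies above 0 in all the T and NK cell sets plotted.

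The contrast of CD8αα with CD8αβ T cells asks how the population in which Fcer1g is high differs from conventional CD8 T cells. In TG mice 3 of 6 members were called, Fcer1g at 2.56 [2.46, 2.65], Tyrobp at 2.74 [2.62, 2.86] and Zap70 at 1.06 [0.89, 1.24], against 16.6% of all genes. In WT mice Fcer1g (4.73) and Tyrobp (4.79), 2 of 6, were called, against 18.9%. Zap70 stood at 0.92 [0.66, 1.18] in WT mice, and its TG value fell to 0.88 under TMM scaling and to 0.64 after thinning, both short of a call. Cd247 was lower in CD8αα T cells, at -0.39 [-0.67, -0.13] in TG and -0.66 [-1.07, -0.27] in WT mice. Hcst was higher, at 0.86 [0.76, 0.96] and 0.75 [0.57, 0.93].

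Some receptors that pair with the adaptors were higher in CD8αα T cells too. Over all genes, 8.35% were called higher in TG and 8.85% in WT mice, and the counts of the short lists are to be read beside these shares. Of the Fcer1g partners, 3 of 5 tested in TG and 3 of 3 in WT mice were called higher, with medians of 1.04 and 3.21 against 0.15 and 0.12 over all genes. They were Fcgr3, Ncr1 and Klrb1c, the last at 907 CPM in TG CD8αα and 137 CPM in TG CD8αβ T cells. Klrk1, the partner of Hcst, was called higher in both libraries, with log2 ratios of 1.70 and 2.45. Of the scaffolds and substrates, 5 of 19 in TG and 5 of 16 in WT mice were higher, and Lat2, Plcg2, Vav3, Txk and Sh2b3 were those in both. Btk was lower in TG mice, with 0 UMIs in CD8αα T cells. The list's median was 0.22 in TG and 0.52 in WT mice. Lat2 and Plcg2 are better known from B and myeloid cells, the first as a scaffold and the second as a phospholipase. Of the CD3 subunits only Cd3g was called (1 of 3 in each library). Of the Src family kinases, which phosphorylate ITAMs, Fgr was the only gene called in TG mice (1 of 6, median 0.28), and in WT mice 3 of 5 were called (Lyn and Fgr higher, Blk lower, median 0.28). Of the brakes, 1 of 14 in TG mice (Ubash3b, median 0.63) and 4 of 14 in WT mice (Cbl, Dok2, Sla and Sla2, median 0.84) were higher, and none was lower. The B cell receptor chains were 0 of 2 in TG and 2 of 2, both lower, in WT mice. Of the Tyrobp partners, Klrc2 and Klrk1 were higher and Klra4 lower in both libraries, among 4 tested in TG and 3 in WT mice.

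Between TG and WT CD8αα T cells, 0 of 16 scaffolds and 0 of 3 CD3 subunits were called, where 5.83% of all genes were, with medians of 0.03 and -0.04 against 0.02 over all genes. None of 4 Src family kinases and 2 Tyrobp partners was called, and Klrk1 stood at 0.25. Fcgr3 (18 and 16 UMIs), Pag1 (-1.04) and Cd79a (2.02 [1.1, 3.1]) were the called genes of the pathway lists there, and Cd79a, a B cell receptor chain, was at 74.0 CPM in TG against 18.2 CPM in WT CD8αα T cells. Cd79a stood at a like TG level in cluster 8 (72.5 against 49.6 CPM in WT mice) and in CD4 T cells (72.2 and 31.8 CPM). It was therefore not particular to CD8αα T cells, and TG mature B cells had 4502 CPM.

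The lower ratio of Fcer1g between the CD8 classes in TG mice rested in part on cluster 7, the proliferating cluster that is counted as CD8αβ T cells (Mki67 at 1127 CPM in TG against 1035 CPM in WT mice). Without it the ratio was 4.2 in TG and 5.37 in WT mice for Fcer1g, and 3.83 and 5.99 for Tyrobp. In WT mice Syk then stood at 1.25 [0.25, 2.20] in place of 0.05, on 16 and 26 UMIs. It made 3 of 6 members called, against 16% of all genes. The TG over WT ratio in CD8αβ T cells dropped from 1.79 to 0.78 for Fcer1g and stood at 1.73 for Tyrobp.

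The other clusters of the CD8αβ T class did not all follow the class ratio. Fcer1g was at 89.8 CPM in TG against 9.11 CPM in WT cells of cluster 12, the latter on 2 UMIs in 73 cells (log2 ratio of 3.30 [1.39, 6.38]). In cluster 13 it was at 88.8 and 178 CPM, where the sign was turned (log2 ratio of -1.0 [-1.45, -0.55]). Tyrobp was higher in TG mice there, at 110 against 39.3 CPM (log2 ratio of 1.49 [0.78, 2.28]). In cluster 13 the 39 WT cells with a Fcer1g UMI had a median TCRβ antibody signal of 1.56 and the 99 without one 2.64. The TG cells of the cluster did not differ in this way, with 3.11 in both the 45 cells with and the 132 without Fcer1g. In cluster 23 the TG level of 1042 CPM came from 49 UMIs in 5 of 15 cells.

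Cluster 7 was mixed. At least 3 Fcer1g UMIs were found in 122 of its 319 TG cells (38.2% [32.9, 43.8]) and in 16 of its 132 WT cells (12.1% [7.09, 18.9]). In TG mice these cells had Tyrobp at 657 CPM, Klrb1c at 500 CPM, Ncr1 at 414 CPM, Cd3e at 912 CPM and Cd8b1, the CD8β chain, at 32.6 CPM. The 132 TG cells without Fcer1g had Tyrobp at 41.7 CPM, Klrb1c at 27.1 CPM, Ncr1 at 12.5 CPM and Cd8b1 at 669 CPM. The Fcer1g-high cells of the TG cluster therefore lacked most of the CD8β transcript that gives the class its name. Zap70 did not follow the split, at 148 CPM with and 151 CPM without Fcer1g. In WT mice the 16 Fcer1g-high cells had 900 CPM of Tyrobp and only 163 CPM of Cd3e. Doublet marking took 61 TG cells (19.1%) and 10 WT cells (7.58%) of the cluster, and without them the Fcer1g-high share was 36.4% in TG and 12.3% in WT mice.

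The antibodies, which had no part in the counts of RNA, divided these cells as well. Values are the authors' centred log ratios and are compared within a library, because NK1.1 was higher in TG than in WT mice even on mature B cells (medians of 0.55 and 0.37). In TG cluster 7 the median NK1.1 signal was 1.45 on Fcer1g-high cells and 0.74 on cells without Fcer1g. TCRβ ran the other way, at 1.79 and 2.93, and so did CD8β, at 0.43 and 1.2. In WT mice TCRβ was at 0.83 on the Fcer1g-high and 2.36 on the Fcer1g-negative cells, and NK1.1 was at 1.13 and 0.52. CD8β was nearly level at 0.58 and 0.63, although the Cd8b1 transcript was at 0 and 525 CPM. The CD4 antibody had medians of 0.80 and 2.39 in WT mice, and of 1.58 and 1.78 in TG mice. Its upper quartile on the TG Fcer1g-negative cells was 3.71. The Fcer1g-negative cells of the cluster therefore included cells with a high CD4 signal. The CD8β antibody bound mature B cells with medians between 1.63 and 1.70, so its background is high.

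**Figure D5:**
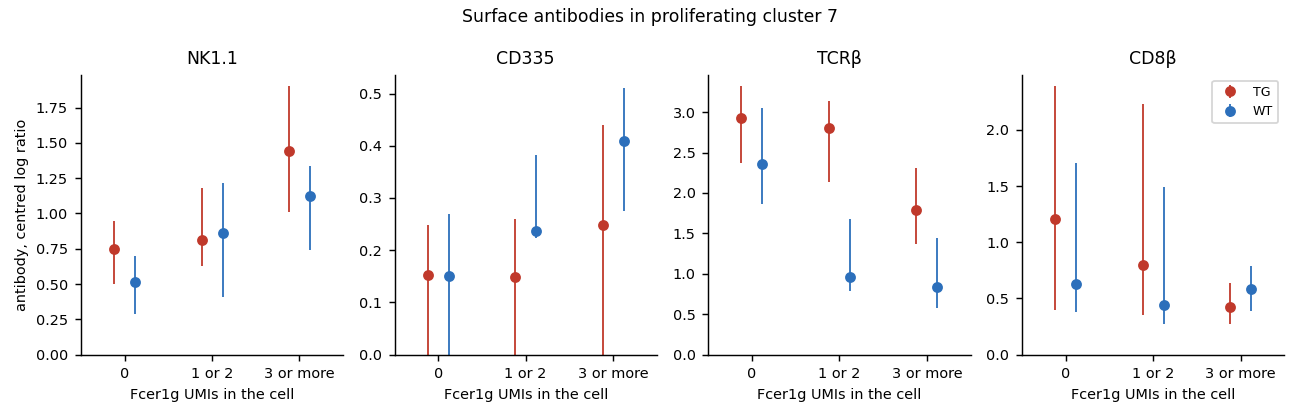
Antibody signal (y axis, centred log ratio) by the number of Fcer1g UMIs in the cell (x axis) in proliferating cluster 7, for the TG and WT libraries. In TG mice NK1.1 rises from a median of 0.74 without Fcer1g to 1.45 at 3 or more UMIs, while TCRβ falls from 2.93 to 1.79.

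In NKT cells a Fcer1g UMI went with a lower CD4 signal in WT mice, with medians of 1.5 with and 2.15 without Fcer1g. In TG mice these medians were 3.07 and 3.30. NK1.1 had a median of 1.46 on the 119 TG cells with Fcer1g and 1.24 on the 327 without, and 1.13 and 1.06 in WT mice. In all CD8αβ T cells TCRβ was at 2.39 with and 2.86 without Fcer1g in TG mice, and at 1.56 and 2.91 in WT mice. Compared with CD4 T cells, NKT cells had 0 of 6 members called in TG mice, against 8.74% of all genes, and 2 of 6 in WT mice, against 12.6%. The WT calls were Fcer1g, higher at 1.92 [1.31, 2.60], and Cd247, lower at -1.06 [-1.22, -0.89]. The TG value of Fcer1g was 0.79 [0.42, 1.18].

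Over 21 profiles of a cell set in a library, the genes most like each member were found by Pearson correlation of log2 levels among 10810 genes. The profiles share 2 libraries, and the correlations are descriptions. Fcer1g was closest to Tyrobp (0.94), followed by Ccl3 (0.88), a chemokine of NK and myeloid cells. By rank correlation (Spearman) neither was among its closest 5 genes, and Tyrobp stood at 0.82. Tyrobp was closest to Fcer1g, Fndc3b (0.92) and the Src family kinase Fgr (0.89). Cd247 was closest to Lat (0.98), Thy1 (0.97) and the T cell transcription factor Bcl11b (0.96). Zap70 was closest to Cd96, Cd3g and Skap1 (each 0.98), and Syk to Arap1, Lyn, Btk and March1 (each 0.93), of which Lyn and Btk are B cell and myeloid kinases. Hcst was closest to Slc9a3r1 (0.95). The choice of closest genes depended on the measure, and of the 5 closest by Pearson only 1 was also among the 5 closest by rank for Fcer1g, Tyrobp and Syk, 2 for Cd247, 4 for Hcst and 0 for Zap70. Among the members, Cd247 and Zap70 went together (0.93), and Syk ran against Zap70 (-0.87) and Cd247 (-0.89).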

How the data were processed

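BD Rhapsody libraries of hepatic CD45+ cells were processed by the authors with the BD Rhapsody pipeline (STAR alignment, mm10). The authors deposited UMI counts for filtered cells with their cell types and clusters, which follow Seurat integration and CCA. How these cells were filtered is not given in the sources used here. The antibody values were deposited as natural log centred ratios, and the mitochondrial share of UMIs was deposited as a percent per cell. The count of sample columns left unused was 0.

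UMIs were summed per library and cell type or cluster and given as CPM, counts per 1000000 UMIs. CPM has exact Poisson intervals, shares exact Clopper-Pearson intervals, and log2 ratios exact conditional binomial intervals, all at 95%. A 0 was given 0.5 UMIs for a ratio. Genes with at least 30 UMIs over both profiles were compared, and a 2-fold difference was called. Cell types with at least 50 cells in each library were compared between TG and WT. No adjusted p-value was computed, since each genotype had 1 library. The ratio code was tested on simulated data. Cells were thinned to 1000 UMIs for shares, and 0 cells lay below this depth. Doublets were marked with Scrublet in scanpy 1.11.5 or by 2 or more UMIs each of B cell and T cell genes, and were kept in the main values. TMM factors came from edgeR 4.0.16. Likeness used log2(CPM + 10) and genes with at least 100 UMIs. R 4.3.3, Python 3.11.15, scipy 1.17.1 and matplotlib 3.10.9 were used.

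The 6 members and the lists of partners, CD3 and B cell receptor chains, Src family kinases, scaffolds and brakes were chosen with earlier results of these data known. List genes were named by highest level in the NK or macrophage class or by a 2-fold difference in CD8αα T cells. Genes outside this rule, cluster 7 and its Fcer1g split were chosen after their values were seen.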

Additional observations from a re-analysis of the deposited data

Results flagged for a closer look

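For Fcer1g, Tyrobp, Hcst and Syk, TG over WT ratios ran in opposite directions in different cell types, with counting intervals on either side of 0. With 1 library per genotype, the difference between cell types was not tested. Fcer1g had a log2 ratio of -0.39 in CD8αα T cells and 2.89 in CD4 T cells. Tyrobp had -0.43 in CD8αα T cells and 2.00 in CD4 T cells. The CD4 T cell levels of both lay near or below those of the mature B class in each library. TG Fcer1g, at 87.6 CPM [68.8, 110] in CD4 T cells, was above B cells of cluster 1, at 56.8 CPM [48.7, 65.7]. In cluster 1 the Fcer1g ratio was 2.08. Hcst had -0.25 [-0.47, -0.02] in mature B cells and 1.09 [0.65, 1.54] in macrophages, and its mature B cell value turned to 0.50 in cluster 1 alone. Syk had -1.08 [-1.40, -0.76] in the NK class, which was mixed differently in the libraries, and 1.40 [0.49, 2.31] in CD4 T cells. With clusters counted as well, Cd247 had 0.86 [0.34, 1.39] in cluster 3 and -0.46 [-0.73, -0.20] in CD4 T cells. No group held enough samples to look for a sample far from the others.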

How the results depend on the processing

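No paired analysis was possible because each genotype had 1 library and no test was run, and leaving out a library was not possible for the same reason. Of 626 alternative log2 ratios of the members, 549 stayed within the counting interval and 596 kept their sign. Leaving out Trdc-positive cells moved the TG over WT ratio in CD8αα T cells to -0.50 for Fcer1g and -0.61 for Tyrobp, and thinning moved Zap70 to -0.39. Leaving out Trdc-positive cells also moved the WT ratio of cluster 8 over CD8αα T cells to 0.031 for Fcer1g, 0.46 for Tyrobp and 3.45 for Syk.

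In the TG ratio of CD8αα over CD8αβ T cells, Fcer1g was 2.37 with TMM factors, 2.42 with totals free of ribosomal protein and mitochondrial genes, 2.88 with cells weighted equally, 2.95 after thinning, 2.66 without doublets, 4.26 as the median over clusters and 4.2 without cluster 7. Tyrobp was 2.56 with TMM, 2.60 without ribosomal and mitochondrial genes, 3.05 with equal weights, 3.2 after thinning, 3.92 as the median and 3.83 without cluster 7. Hcst was 0.67, 0.72, 0.61, 0.58, 0.65 and 0.52 under the same 6 settings. Syk was 0.41 after thinning, 0.29 as the median and 0.31 without cluster 7, and Zap70 was 0.88 with TMM and 0.64 after thinning.

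The number of members called fell to 1 in CD8αβ T cells without cluster 7, to 1 in mature B cells without doublets or in cluster 1 alone (Fcer1g in both cases, higher, while Cd247 and Zap70 lost their calls), and to 0 in macrophages with TMM or without cells of T and myeloid genes. It rose to 1 for NKT over CD4 T cells in TG mice with equal weights, thinning or the median over clusters, and, from 2 for CD8αα over CD8αβ T cells in WT mice, to 4 as the median over clusters and 3 without cluster 7. Over all genes, 16% were called in that WT comparison without cluster 7, and 3% for TG over WT in cluster 1 alone. The number of genes called depended on the threshold. For TG over WT in CD8αα T cells it was 416, against 1103 at a minimum of 10 UMIs, 2826 at 1 UMI and 1424 at 1.5-fold. For cluster 8 it was 291, against 944, 3262 and 1120. For CD8αα over CD8αβ T cells in TG mice it was 1583, against 3188 at 1 UMI and 3442 at 1.5-fold. For cluster 8 over CD8αα T cells it was 955 in TG mice, against 1791, 3541 and 2104, and 679 in WT mice, against 1508, 3756 and 1627. A lower minimum adds genes whose ratio rests on few UMIs. Of 106 alternative Syk shares of Syk and Zap70, 27 moved beyond the counting interval, as did 14 of 106 Fcer1g shares of Fcer1g and Cd247. Cd247 and Syk rested on 59 and 16 UMIs in WT CD8αα T cells, which limits their ratios.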
